A study of Mus musculus with 24 samples.

Results

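P19 cells, a mouse embryonal carcinoma line able to differentiate under retinoic acid, were compared between late and early exposure to a pair of receptor-selective retinoids, BMS641 and BMS961. The 8 arrays were those of both agents at 48 and 72 h (late, 4 arrays) and at 2 and 6 h (early, 4 arrays), out of 24 arrays in all. They were chosen by agent and time as the labels give them, with no measured value used. BMS641 is an agonist of the receptor RARβ and BMS961 of RARγ, and both were given at 0.1 µM. The other arrays served for comparison: 4 arrays of EtOH (ethanol) that carry no time label, BMS641 and BMS961 at 24 h (1 array each), and all-trans retinoic acid (ATRA) and the RARα agonist BMS753, both at 1 µM, with 1 array each at 2, 6, 24, 48 and 72 h. All cells were grown as a monolayer on gelatine-coated plates in the same serum mixture, without deletion or transgene. Since EtOH has no time label, time in culture and exposure to an agent cannot be told apart in late against early. The labels do not say whether the arrays come from separate cultures, and no agent and time had a second array. The p-values therefore measure the spread between arrays of a phase, including any change from 2 to 6 h and from 48 to 72 h, and part of it may be technical.

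Retinoic acid receptors (RARα, RARβ and RARγ) bind DNA as pairs with retinoid X receptors, often at a direct repeat of a short unit. Without ligand they hold target genes down with co-repressors, and with ligand they recruit co-activators. In embryonal carcinoma cells their best known targets include Cyp26a1, which encodes the enzyme that breaks retinoic acid down, Rarb itself, and the Hox genes at the ends of the clusters that are used first. A course of differentiation is marked by loss of pluripotency factors such as Oct4 (gene Pou5f1).

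Values are log2 expression levels of the arrays as deposited, in which 1 unit is a 2-fold change. Across 19938 genes, the 8 arrays split by phase on their first principal component, which held 33.0% of the variance. The late arrays lay between 1.35 and 10.3 on it and the early arrays between −9.55 and −2.23. Of the defining markers of the labelled cell type, Pou5f1 and Sox2, another pluripotency factor, were high in both phases. Pou5f1 stood between 12.78 and 12.92 on the 8 arrays, and Sox2 between 11.40 and 11.72. Not every listed marker was high: Dppa5a stood between 5.14 and 5.80 on the same arrays. The standard deviation across genes of the difference between 2 arrays was 0.116 to 0.129 from 2 to 6 h and 0.104 from 48 to 72 h, beside 0.0941 to 0.143 between EtOH arrays. The same deviation between an early and a late array was 0.117 (2 to 48 h) and 0.120 (6 to 72 h) with BMS641. With BMS961 it was 0.148 and 0.136, and of these values only 0.148 lay above the EtOH range.

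The largest late changes were rises of Gfra1, Greb1l and Meis2, and most changes that passed the test were small. The program limma, with the agents as a block, called 497 of 19938 genes late against early (adjusted p under 0.05, 2.49% of all genes). Of these 273 were higher (1.37%) and 224 lower (1.12%), with a median size of 0.28 log2 units, and those 3 genes alone changed at least 2-fold. The 4 late and the 4 early arrays did not overlap in 450 of the 497, beside 7.62% of all genes. All 497 had the same sign in both agents. The choice of the genes on these same 8 arrays favours both the lack of overlap and the shared sign. The count fell to 329 without the BMS641 72 h array, 313 without the BMS961 48 h array, 253 without the BMS961 72 h array and 121 without both 72 h arrays, and it was 816 with a term for each time. In a fit of all 24 arrays, which shares its spread with the 1 µM arrays, 14 genes were called (8 of the genes named here: Edil3, Car2, Grik3, Zfp946, Tmem130, Gprc5c, Ppm1k and Id2). Across genes, the 48 and 72 h arrays differed by a standard deviation of 0.406 with ATRA and 0.291 with BMS753.

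Gfra1, a co-receptor for the growth factor GDNF, and Greb1l, a retinoid-responsive gene related to the oestrogen-responsive Greb1, had the largest rises. Gfra1 stood at 7.22 at 2 h, 8.06 at 6 h, 8.97 at 48 h and 8.89 at 72 h of BMS641. With BMS961 it stood at 7.30, 8.29, 9.62 and 9.55 at the same times, and EtOH ranged from 7.50 to 7.68. Every late array lay above every early array, and the 2 h arrays lay below all 4 EtOH arrays. Late exceeded early by 1.54 ± 0.18 (SE, n = 4 and 4, limma adjusted p = 1.59e-04), a 2.91-fold rise. Greb1l stood at 7.00, 8.25, 8.90 and 8.99 at 2, 6, 48 and 72 h of BMS641. With BMS961 it stood at 7.20, 8.37, 9.27 and 9.37. It too was below EtOH (7.49 to 7.62) at 2 h and above it from 6 h on, and its 2.69-fold rise (1.43 ± 0.22, adjusted p = 0.00188) was the same on its dimmer probe set (1.42). Both calls were lost under robust variance moderation (adjusted p = 0.0926 for Gfra1 and 0.191 for Greb1l). Over all 24 arrays the genes most like Greb1l were Kit (r = 0.92), Gfra1 (0.92), Csn3 (0.91), Sox13 (0.90) and Baz1a (0.90), and those most like Gfra1 after Greb1l were Kit (0.85), Fam171b (0.84), Jazf1 (0.84) and Ccna1 (0.84). These correlations run over arrays of several agents, doses and times and are a description.

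At 1 µM the same pair of genes followed another course. Gfra1 with ATRA stood at 7.53, 9.82, 10.95, 10.17 and 9.02 at 2, 6, 24, 48 and 72 h, and Greb1l at 8.14, 10.67, 11.50, 10.09 and 8.58. With BMS753, Gfra1 stood at 7.44, 8.92, 10.32, 9.67 and 9.11 and Greb1l at 7.63, 9.99, 10.78, 11.34 and 10.42. Their highest 1 µM arrays were thus those at 24 or 48 h. From 48 to 72 h both genes fell with ATRA and with BMS753, whereas at 0.1 µM they stood at nearly the same level at these times. Late against early at 1 µM was 1.06 for Gfra1 (adjusted p = 0.221) and 1.00 for Greb1l (0.443), and the difference from the 0.1 µM change (0.48 ± 0.65 SE and 0.43 ± 0.92 SE) did not pass the test for either.

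**Figure D1:**
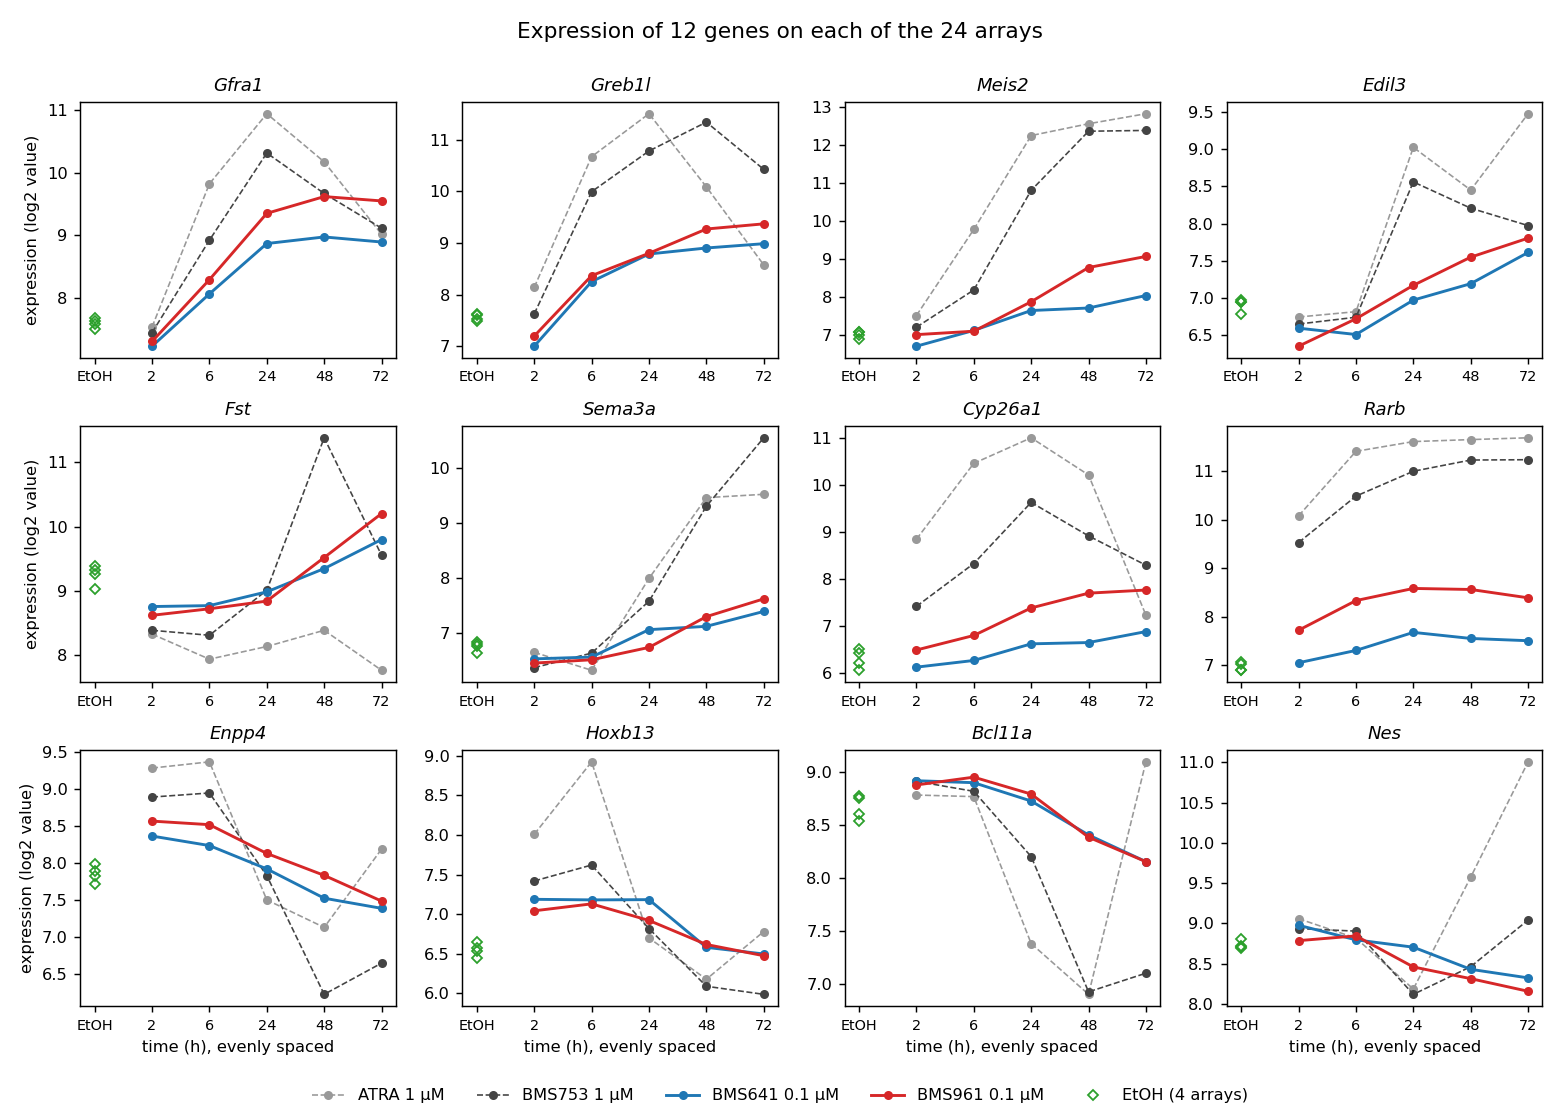
Log2 expression of 12 genes on all 24 arrays. Each point is 1 array; the x axis gives EtOH (4 arrays, diamonds) and the time in hours at even spacing, solid lines are BMS641 and BMS961 at 0.1 µM, dashed lines ATRA and BMS753 at 1 µM, and the y axes differ between panels. In the 0.1 µM courses Gfra1, Greb1l, Meis2, Edil3, Fst and Sema3a end above where they start, and Enpp4, Hoxb13, Bcl11a and Nes end below.

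The next largest rises without overlap between the phases were those of Meis2, Edil3, Fst and Sema3a. Meis2, a TALE homeobox partner of Hox proteins, stood at 6.71, 7.13, 7.72 and 8.05 at 2, 6, 48 and 72 h of BMS641 and at 7.02, 7.11, 8.78 and 9.07 with BMS961, beside 6.91 to 7.09 in EtOH. All 4 late arrays lay above all early and EtOH arrays (1.41 ± 0.15, adjusted p = 4.82e-05). Edil3, a secreted integrin-binding matrix protein, went from 6.35 to 6.72 on the early arrays to 7.19 to 7.80 on the late ones (1.00 ± 0.10, adjusted p = 3.82e-05). Fst, which encodes the activin-binding protein follistatin, stood at 8.62 to 8.77 early, 9.35 to 10.20 late and 9.03 to 9.39 in EtOH. Its early arrays were thus below every EtOH array, and its late rise (1.00 ± 0.12, adjusted p = 1.88e-04) lost its call under robust variance moderation (adjusted p = 0.0834). Sema3a, a secreted axon guidance signal, rose by 0.84 ± 0.08 from 6.45 to 6.56 early to 7.12 to 7.62 late.

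Cyp26a1, described with the retinoid genes, rose by 0.83 with overlapping phases. The remaining 9 of the 15 largest rises among genes chosen for having no overlap between the phases were between 0.64 and 0.77. Nt5e, a surface enzyme that makes adenosine, rose by 0.77, the glycine receptor subunit gene Glra2 by 0.76 and the carbonic anhydrase gene Car2 by 0.76. Ephx2, an epoxide hydrolase, rose by 0.74, the protocadherin Pcdh18 by 0.73, and Porcn, the acyltransferase that lipid-modifies Wnt proteins, by 0.72. The LIM homeobox gene Lhx2 rose by 0.69, the deubiquitinase Usp3 by 0.68 and the ephrin receptor Epha4 by 0.64. Their SEs were 0.06 to 0.10 and their adjusted p at most 0.00129. Glra2, a dim gene, stood at 4.16 to 4.38 early and 4.87 to 5.18 late, beside 4.19 to 4.38 in EtOH. With ATRA it reached 9.52 at 24 h and was back at 4.15 by 72 h. Ephx2 likewise stood at 11.07 with ATRA at 24 h and at 5.75 at 72 h, while at 0.1 µM its highest arrays were those at 72 h (6.91 and 7.02).

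The 15 largest falls without overlap between the phases were between 0.52 and 0.86, and several of them began from an early level above EtOH. Enpp4, of the ectonucleotide pyrophosphatase family, stood at 8.36 and 8.24 at 2 and 6 h of BMS641 and at 8.57 and 8.52 of BMS961. At 48 and 72 h it stood at 7.52 and 7.39 with BMS641 and 7.83 and 7.48 with BMS961, beside 7.72 to 7.98 in EtOH. Every early array lay above, and 3 of 4 late arrays below, every EtOH array, and late fell by 0.86 on the log2 scale (SE 0.07, adjusted p = 5.73e-06). Hoxb13, a posterior Hox gene, stood at 7.04 to 7.19 early, 6.48 to 6.62 late and 6.44 to 6.65 in EtOH. Its early arrays were the ones apart from EtOH (0.58, limma adjusted p = 5.44e-05), and late did not differ detectably from EtOH (−0.01, adjusted p = 0.981). With the 24 h arrays counted as late its call was lost (adjusted p = 0.0519). The same 2 genes stood high in the first hours at 1 µM: Enpp4 at 9.28 and 9.37 with ATRA and 8.89 and 8.95 with BMS753, Hoxb13 at 8.01 and 8.92 with ATRA and 7.42 and 7.62 with BMS753, at 2 and 6 h. Both were then lower at 48 h (Enpp4 at 7.13 and 6.22, Hoxb13 at 6.18 and 6.09, with ATRA and BMS753).

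Early arrays above EtOH were also called for Cpt1a, the gate of mitochondrial fatty acid import (early minus EtOH 0.43, late minus early −0.61), the mitochondrial phosphatase Ppm1k (0.39 and −0.54), the orphan receptor Gprc5c (0.34 and −0.60), the zinc finger gene Zfp946 (0.27 and −0.65) and Pcolce, an enhancer of procollagen processing (0.25 and −0.75). The other large falls had no early difference from EtOH that passed the test. They were the kainate receptor subunit Grik3 (−0.70), the transcription factor Bcl11a (−0.64), Tmem130 (−0.62), the glutathione transferase Gstk1 (−0.61), P-cadherin (Cdh3, −0.59), the serotonin receptor Htr1d (−0.58), the intermediate filament gene Nes (−0.54) and the pacemaker channel Hcn4 (−0.52). Bcl11a stood at 8.88 to 8.95 early and 8.15 to 8.41 late, below EtOH (8.54 to 8.78) on every late array. Gprc5c moved the other way at 1 µM (0.36, adjusted p = 0.0342), and the doses differed (−0.96 ± 0.13 SE, adjusted p = 1.84e-04).

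Against EtOH, limma called 94 genes early (0.471% of all genes, 70 higher and 24 lower) and 396 late (1.99%, 231 higher and 165 lower). These comparisons share the EtOH arrays with each other and their other arrays with late against early, so their values are given side by side. Of the 497 genes, 223 were called late against EtOH, 41 early, 13 in both and 246 in neither. The EtOH mean was nearer to the early mean for 288, nearer to the late mean for 116, beyond the early mean for 74 and beyond the late mean for 19. In the 273 higher genes the median over genes of an array minus EtOH was −0.07 and −0.11 at 2 h of BMS641 and BMS961, and 0.15 and 0.27 at 72 h. In the 224 lower genes it was 0.09 and 0.10 at 2 h and −0.19 and −0.25 at 72 h. The mean of the 24 h arrays, which entered no call, lay between the early and the late mean for 451 of 497 genes, at a median of 47.6% of the change. Because these genes were chosen for early and late means that lie apart, a place between them is favoured by the choice. The share over all genes was not measured. The early count was 45, 53 and 41 without EtOH array 1, 3 or 4. In the fit of all 24 arrays limma called 0 genes early and 0 late, with 763 and 994 at an unadjusted p under 0.05.

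**Figure D2:**
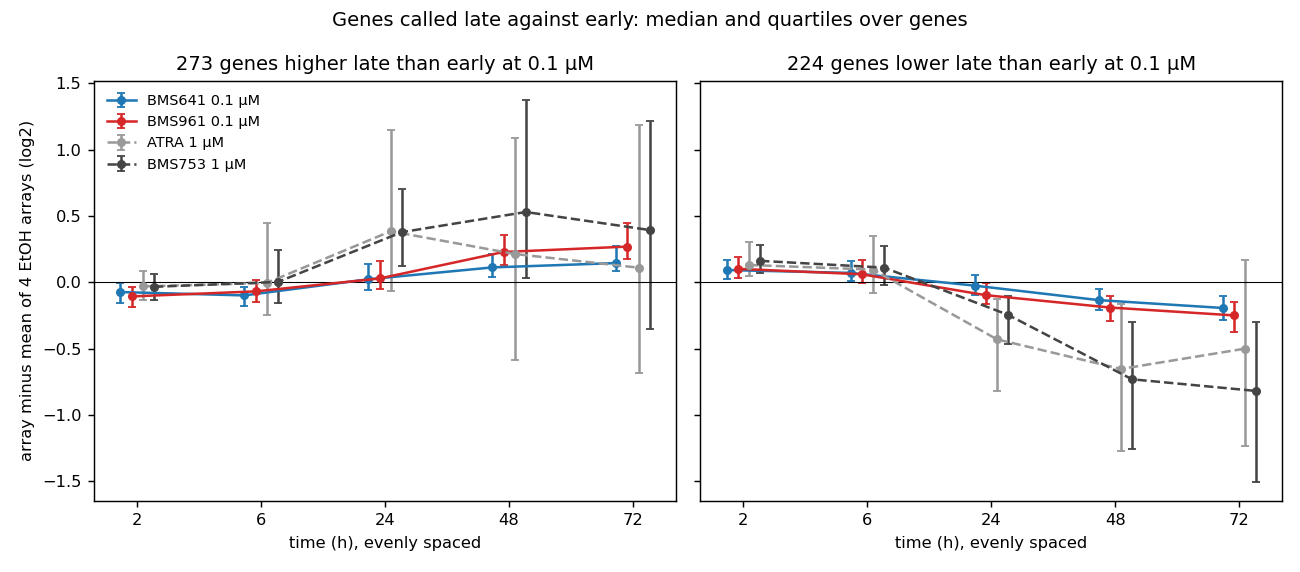
Courses of the 273 genes called higher (left) and the 224 called lower (right) late against early at 0.1 µM. The x axis is time in hours at even spacing, the y axis the array minus the mean of 4 EtOH arrays (log2), points are medians over genes, bars quartiles, solid lines the 0.1 µM agents and dashed lines the 1 µM agents. The 0.1 µM medians pass from one side of EtOH to the other, from −0.07 and −0.11 at 2 h to 0.15 and 0.27 at 72 h for the higher genes; the genes were chosen on the 2, 6, 48 and 72 h arrays of BMS641 and BMS961.

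Among the retinoid genes, Cyp26a1 and Rarb rose beside Greb1l, Crabp2 fell, and 20 of the 24 measured (27 listed) did not pass the test. Cyp26a1 and Rarb are shown by sequence because they are the 2 called genes whose promoters held the best known retinoid element, a DR5: 2 short units in the same direction with 5 bases between them, searched on both strands. Each unit could be AGGTCA, its variant GGGTCA, the form AGTTCA or the form GGTTCA. The sequences are the 250 bases before the gene start on the strand of the gene, from RefSeq promoters (GRCm38.p6), with the match in capitals. That of Cyp26a1 is chr19:37697558-37697807 (+ strand) and that of Rarb chr14:16575477-16575726 (− strand).
Cyp26a1: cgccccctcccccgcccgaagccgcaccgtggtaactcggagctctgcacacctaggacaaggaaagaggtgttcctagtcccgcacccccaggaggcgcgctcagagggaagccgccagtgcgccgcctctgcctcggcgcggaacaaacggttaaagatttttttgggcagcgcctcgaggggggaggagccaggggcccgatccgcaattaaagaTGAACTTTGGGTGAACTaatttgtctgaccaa
Rarb: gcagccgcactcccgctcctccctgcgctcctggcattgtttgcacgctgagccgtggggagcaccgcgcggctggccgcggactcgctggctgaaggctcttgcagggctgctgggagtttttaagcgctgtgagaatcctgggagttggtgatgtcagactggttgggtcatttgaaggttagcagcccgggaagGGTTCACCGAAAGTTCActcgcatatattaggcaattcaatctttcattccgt
The match began 32 bases before the start in Cyp26a1, on the opposite strand, and 53 bases before the start in Rarb, on the strand of the gene. In windows of 300 bases (250 before to 50 after the start) the DR5 was in 11 of 19177 promoters of the genes tested (0.05736%). RefSeq promoters were at hand for 197 of the 273 higher genes (290 promoters, 2 with a match) and 173 of the 224 lower genes (229 promoters, 0 with a match). The other 9 genes with a DR5 match were not called, with changes from −0.12 to 0.20. With 1 base between the units the repeat was in 39 of the 19177 promoters (0.2034%), 1 of them of a higher gene (Ak4, 0.15) and 1 of a lower gene (Zfr, −0.15). With 2 bases between them it was in 15 (0.07822%), none of a called gene. A match describes letters in a window and not a bound site.

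Cyp26a1, which encodes the hydroxylase that clears retinoic acid, stood at 6.12, 6.26, 6.64 and 6.87 at 2, 6, 48 and 72 h of BMS641. With BMS961 it stood at 6.48, 6.79, 7.69 and 7.76, and EtOH ranged from 6.05 to 6.50. Within each agent late lay above early, but the late BMS641 array at 48 h (6.64) lay below the 6 h BMS961 array (6.79), so the phases overlapped across agents. Late exceeded early by 0.83 ± 0.10 (adjusted p = 1.61e-04). Rarb, which encodes RARβ, stood at 7.05, 7.30, 7.55 and 7.51 with BMS641 and at 7.72, 8.33, 8.56 and 8.39 with BMS961, with EtOH at 6.89 to 7.06. It was above EtOH already early (0.64, adjusted p = 0.00259), most of all with BMS961, and rose by a further 0.40 ± 0.10 late (adjusted p = 0.0435). That call was lost without any 1 of 6 arrays, those of both agents at 2, 48 and 72 h (adjusted p 0.0730 to 0.180), and without the agent block (0.544). With ATRA, Rarb stood at 10.08 by 2 h and 11.70 at 72 h.

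Crabp2, a carrier of retinoic acid to the receptors, moved against its 1 µM course. It stood at 7.86 to 8.15 early and 7.43 to 7.65 late, below the EtOH range of 7.79 to 7.91 on all 4 late arrays, and fell by 0.46 on the log2 scale (SE 0.07, adjusted p = 8.11e-04). At 1 µM it rose by 3.52 (adjusted p = 1.82e-04), and the difference between the doses was −3.99 ± 0.29 SE (adjusted p = 1.34e-06). Dhrs3, a retinal reductase, was above EtOH early (0.58, adjusted p = 4.49e-07) and late (0.63, adjusted p = 3.56e-08), with no call between them (0.05 ± 0.06). The retinol transporter gene Stra6 (−0.02 ± 0.07), the hydroxylase gene Cyp26b1 (−0.02 ± 0.06), the binding protein gene Crabp1 (0.12 ± 0.07) and the receptor genes Rara (−0.01 ± 0.04) and Rarg (0.09 ± 0.04) were not called. The list held 3 genes called higher, Greb1l among them, and 1 lower (16.7% of its measured genes, beside 2.49% of all genes). Its members were chosen with earlier results of these data known, so the choice may have raised the share. The median change of the list was −0.01, beside a median of −0.003 over all genes.

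Of 14 measured genes of Hox paralogue groups 1 to 5 (15 listed), 3 rose, 0 fell and 11 were not called, a share of 21.4% beside 2.49% of all genes. This list too was chosen with earlier results known, which may have raised the share. Hoxb2 stood at 6.87 to 6.99 early and 7.09 to 7.76 late, with EtOH at 6.86 to 7.16 (0.50 ± 0.08, adjusted p = 0.00344). Hoxa2 stood at 5.22 to 5.41 early and 5.46 to 6.12 late (0.44 ± 0.09, adjusted p = 0.0111), and Hoxb1 rose by 0.34 ± 0.06 (adjusted p = 0.00471), with late and early arrays that overlapped. All 3 calls were lost without the 72 h arrays (adjusted p = 0.0964 for Hoxb2, 0.0590 for Hoxa2 and 0.179 for Hoxb1), and that of Hoxa2 also without the 6 h arrays (0.0727) or the 48 h arrays (0.0626). With the 24 h arrays counted as late they were lost too (0.141, 0.135 and 0.176). With BMS641 alone the 3 calls were also lost (changes of 0.32, 0.21 and 0.29, limma adjusted p = 0.461, 0.824 and 0.377). Hoxa5 (0.21 ± 0.06, adjusted p = 0.0836) and Hoxc5 (−0.11 ± 0.06) were not called. At 1 µM limma called 13 of these 14 genes higher, in a comparison that called 20.7% of all genes. Of 11 measured TALE and Cdx genes (12 listed), partners and regulators of Hox proteins, Meis2 and Pknox2 rose. Pknox2 rose by 0.24 ± 0.04 (adjusted p = 0.00221), a call lost without the 72 h arrays (0.0778) or with BMS641 alone (0.267). Meis1 stood at 0.28 ± 0.08 and was not called (adjusted p = 0.0856), but passed without the BMS641 2 h array (0.34, adjusted p = 0.0336) or the BMS641 48 h array (0.35, adjusted p = 0.0370), and with BMS961 alone (0.52, adjusted p = 0.00296).

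With the agents as a block, no pluripotency gene passed the test as lower. Of 33 genes, 3 rose, 0 fell and 30 were not called, a share of 9.09% beside 2.49% of all genes, with a median of 0.01. These genes were also chosen with earlier results known, which may have raised the share. At 1 µM, where 20.7% of all genes were called, 16 fell and 0 rose, with a median of −0.50. Nanog, a homeobox gene of the pluripotent state, stood at 9.01, 8.82, 9.25 and 9.47 at 2, 6, 48 and 72 h of BMS641. With BMS961 it stood at 8.89, 8.87, 9.35 and 9.48, and EtOH ranged from 8.82 to 8.91. All 4 late arrays lay above all early and EtOH arrays (0.49 ± 0.06, adjusted p = 1.05e-04). Late Nanog at 1 µM fell by 2.56 on the log2 scale, and the doses differed by 3.06 ± 0.67 (SE, adjusted p = 0.00559). Dppa2, an embryonic stem cell chromatin factor, rose by 0.45 ± 0.07 from 7.44 to 7.55 early to 7.69 to 8.15 late, while its dimmer probe set stood at 0.12. The Krüppel-like factor gene Klf2 rose by 0.25 ± 0.06 (adjusted p = 0.0300), a call lost without any 1 of 6 arrays, those of both agents at 6, 48 and 72 h (adjusted p 0.0759 to 0.115).

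Pou5f1 stood at 12.87, 12.89, 12.87 and 12.86 with BMS641 and at 12.92, 12.89, 12.85 and 12.78 with BMS961 (−0.05 ± 0.02, adjusted p = 0.328). With ATRA it went from 13.00 at 2 h to 5.45 at 72 h. Sox2 (0.13 ± 0.04), the growth factor gene Fgf4 (−0.22 ± 0.06), Tdgf1, a Nodal co-receptor (0.10 ± 0.06), and Utf1, a chromatin factor (−0.00 ± 0.03), were not called. Sox2 passed without the BMS641 6 h array (adjusted p = 0.0394) or both 6 h arrays (0.00329), and on all 8 arrays with a term for each time (0.00804). Tdgf1 passed without the BMS641 2 h array (0.0326) or both 2 h arrays (0.0395). Fgf4 passed without the BMS961 48 h array (0.0422), both 48 h arrays (0.0198) or both 6 h arrays (0.0457), and on all 8 arrays with a term for each time it was called lower (−0.22, adjusted p = 0.00132).

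Of 161 distinct markers of other cell types, 4 rose and 4 fell, a share of 4.97% beside 2.49% of all genes. These markers were chosen with earlier results of these data known, so the choice may have raised the share. Of 30 neural progenitor genes 2 rose and 1 fell: Gbx2, a patterning homeobox gene (0.45 ± 0.06), Fabp7, a lipid carrier of radial glia (0.42 ± 0.09), and Nes, which fell. Gbx2 lost its call without the 72 h arrays (adjusted p = 0.0504) and Fabp7 without the BMS961 48 h array (0.0840) or the BMS961 72 h array (0.0824), and without both 6 h (0.0655) or both 72 h arrays (0.261). Of 29 neuron genes 2 rose and 2 fell: Gfra1 and the growth cone gene Gap43 (0.48 ± 0.10) rose, and the RNA-binding protein gene Elavl3 (−0.22 ± 0.05) and the transcription factor gene Ebf1 (−0.48 ± 0.10) fell. Gap43 was lost without the BMS641 72 h (adjusted p = 0.0579) or BMS961 48 h array (0.0761), Ebf1 without the BMS641 72 h array (0.0550), and Elavl3 without the BMS641 72 h, BMS961 48 h or BMS961 72 h array (0.0579 to 0.0838). The limma fit called 0 of 25 endoderm, 0 of 23 mesoderm and cardiac, 0 of 14 neural crest, 0 of 17 fibroblast and smooth muscle and 0 of 11 glia genes, with 3, 3, 3, 3 and 2 of them at an unadjusted p under 0.05. Of 13 trophoblast genes 1 fell, the keratin gene Krt18 (−0.35 ± 0.05). The mean level of each of these lists overlapped between late and early arrays, except the neuron list (7.37 to 7.43 early and 7.46 to 7.48 late), which holds Gfra1 (1.54) and had a median change of −0.000415. In bulk RNA, fewer cells of a type and less RNA per cell cannot be told apart.

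Genes induced by low oxygen and of glycolysis rose in part. Of 26 measured genes (28 listed) 6 rose and 0 fell, a share of 23.1% beside 2.49% of all genes. The median change was 0.08, beside −0.003 over all genes, and 24 of the 26 estimates were above 0. The mean level of the list overlapped between early (10.81 to 10.96) and late arrays (10.95 to 11.07), and EtOH (10.89 to 10.98) overlapped both. Its members were chosen with earlier results of these data known, so the choice may have raised the share. Adm, which encodes the vasodilator peptide adrenomedullin, stood at 6.59 to 7.03 early and 7.12 to 7.57 late (0.49 ± 0.10, adjusted p = 0.0103), and Pfkp, a phosphofructokinase gene, at 10.09 to 10.31 early and 10.41 to 10.56 late (0.30 ± 0.05, adjusted p = 0.00186). The prolyl hydroxylase genes Egln3 (0.34 ± 0.09) and P4ha2 (0.32 ± 0.07), Higd1a (0.32 ± 0.08) and the mitophagy receptor gene Bnip3 (0.15 ± 0.04) rose with adjusted p between 0.0255 and 0.0466. For Pfkp, EtOH stood at 10.31 to 10.40, below every late array and at or above every early one. For Adm, EtOH (6.93 to 7.30) overlapped both phases. The calls of Egln3, Higd1a, Bnip3 and P4ha2 were each lost without any 1 of 6 arrays (for Egln3, Higd1a and Bnip3 both agents at 6 and 72 h and BMS961 at 2 and 48 h, for P4ha2 both agents at 6, 48 and 72 h, adjusted p 0.0505 to 0.193). Adm was lost without the BMS961 72 h array (0.0542), both 48 h (0.0881) or both 72 h arrays (0.0969), and Pfkp without both 72 h arrays (0.0602). With BMS641 alone all 6 calls were lost (changes of 0.09 to 0.29, limma adjusted p 0.304 to 0.9996). With BMS961 alone that of P4ha2 was lost (0.103). For Egln3 the BMS641 2 h array (10.10) lay above both late BMS641 arrays (10.03). At 1 µM, where 20.7% of all genes were called, 0 of the 26 rose and 4 fell. Cell density and oxygen in the plates are not in the labels, and their part in the result was not tested.

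**Figure D3:**
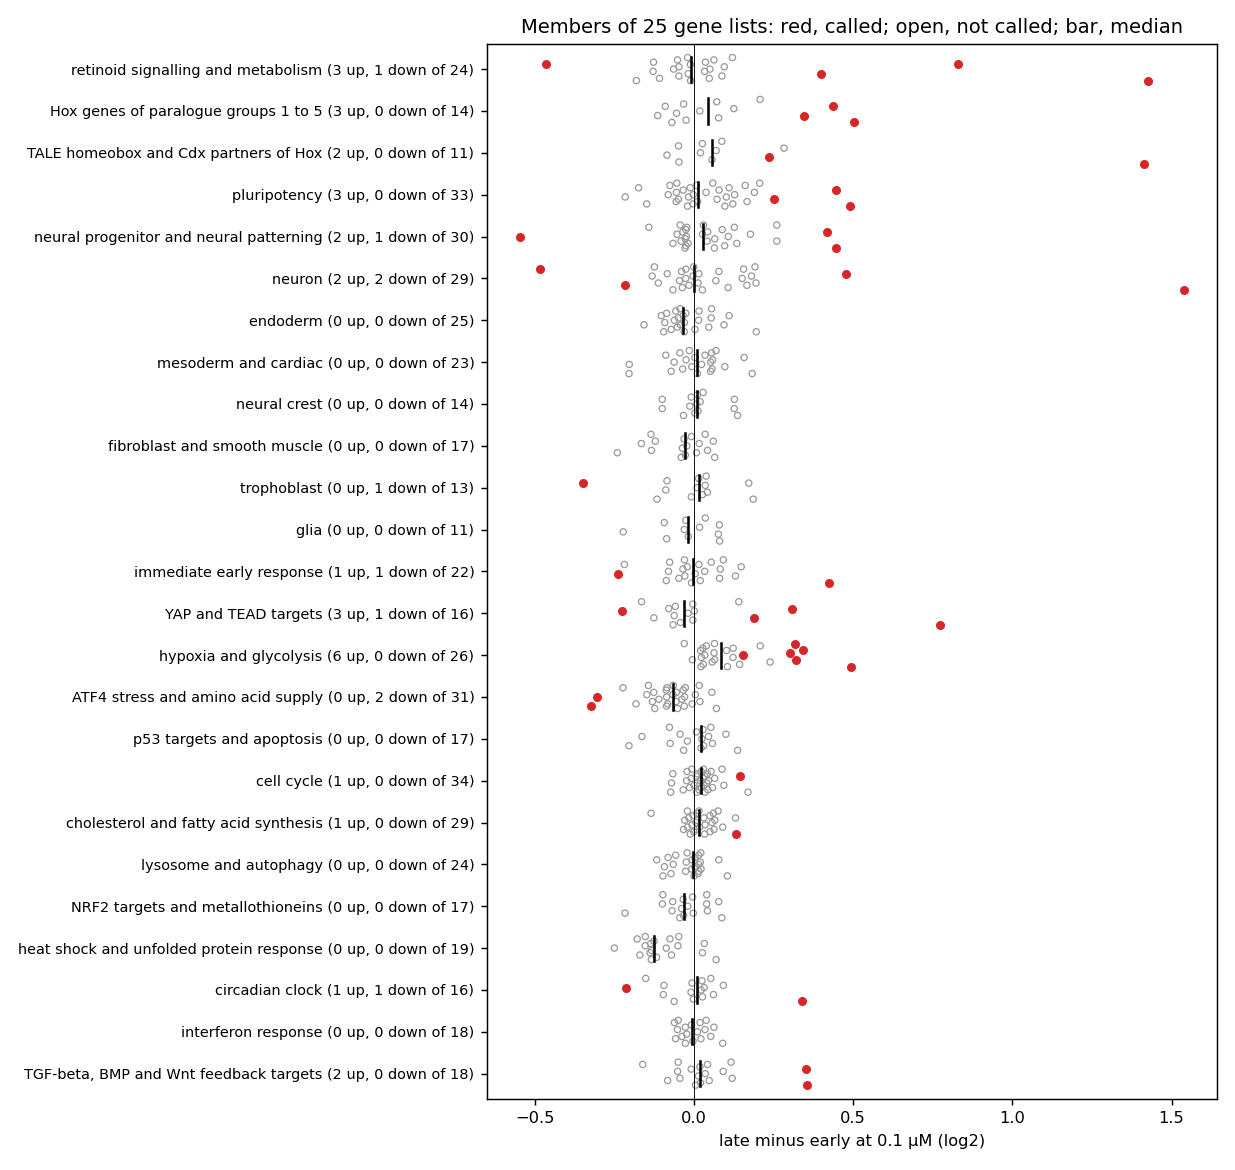
Late minus early at 0.1 µM (x axis, log2) for every measured member of 25 gene lists (y axis). Red points passed the test, open points did not, the bar is the median of the list, and the vertical spread is only to separate points. The red points farthest to the right are Gfra1, Greb1l and Meis2, and the hypoxia and glycolysis median (0.08) is the highest and the heat shock median (−0.12) the lowest.

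The 2 agents, given at the same dose and times, were compared as 1 pair. The limma fit called 0 genes for a difference between BMS961 and BMS641 in the late change (0% of all genes), with 708 at an unadjusted p under 0.05. Without the BMS961 6 h array 1 gene passed, Ier3, an early response gene (1.13, adjusted p = 0.00827). The change was larger in BMS961 for 393 of the 497 genes, and the share over all genes was not measured. Across all genes, early and late arrays also differed by a larger standard deviation with BMS961 (0.148 and 0.136) than with BMS641 (0.117 and 0.120). The changes of the agents correlated across all genes at r = 0.48, where genes are not independent. Meis2 rose by 0.96 with BMS641 and 1.86 with BMS961, a difference of 0.90 with a 95% interval of 0.50 to 1.30 (adjusted p = 0.9999). The differences were 0.52 for Cyp26a1 (0.20 to 0.85), 0.53 for Fabp7 (0.26 to 0.79), 0.51 for Stc1, which encodes a secreted hormone (0.23 to 0.80), and 0.76 for Ier3 (0.27 to 1.25). In the other direction stood Lefty2, a Nodal inhibitor (−0.53, interval −0.81 to −0.25), Usp17ld (−0.51), the membrane peptidase gene Mme (−0.50), Derl3 (−0.48) and Icos (−0.48). These 10 were ranked by the size of the difference, and none passed the test. For Greb1l the interval was −0.76 to 1.20 and for Gfra1 −0.25 to 1.25, so a 2-fold difference between the agents was not excluded for either.

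**Figure D4:**
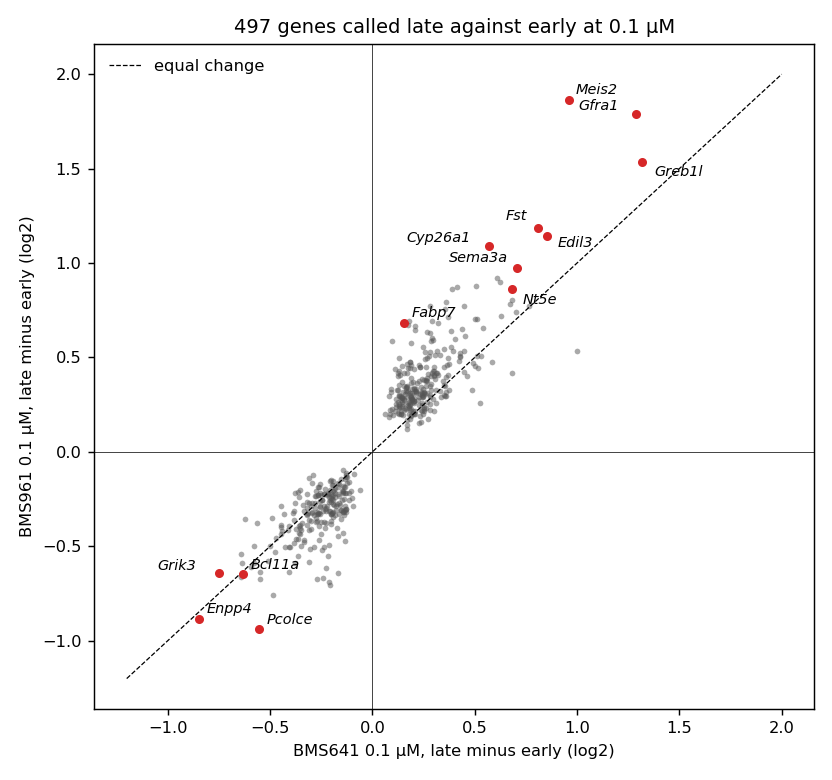
Late minus early change with BMS641 (x axis) and BMS961 (y axis), both log2 at 0.1 µM, for the 497 genes called over both agents; the dashed line marks equal change. All 497 lie in the same-sign quadrants, as the choice of genes favours, and 393 are farther from 0 with BMS961, a share not measured over all genes.

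The late change with ATRA and BMS753 at 1 µM was compared next. The limma fit called 4127 genes late against early at 1 µM (20.7%) and 4022 genes (20.2%) for a difference between the 0.1 µM and the 1 µM agents, which differ in agent and dose together. The count at 1 µM was 2375 without the ATRA 2 h array, 2420 without the ATRA 6 h array, 2578 without the BMS753 72 h array and 8099 in the fit of all 24 arrays. Of the 497 genes, 239 were called in the same direction at 1 µM, 48 in the opposite direction and 210 not at all. The difference between the doses itself was called for 275, beside 20.2% of all genes. The genes called at both doses were 57.7% of the 497 and 6.95% of those called at 1 µM. By direction, 95 of 273 higher genes were called higher and 38 lower at 1 µM, and 144 of 224 lower genes were called lower and 10 higher. Over all 19938 genes, 1720 were called higher and 2407 lower at 1 µM. The 2 late changes share no array, and they correlated across all genes at r = 0.22.

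The 5 largest differences between the doses in each direction were in genes not called late against early at 0.1 µM. Nr0b1, an orphan receptor of pluripotent cells, changed by 0.16 at 0.1 µM and −5.18 at 1 µM (difference 5.34 ± 0.64 SE, adjusted p = 8.93e-05), and it stood above EtOH both early (0.51, adjusted p = 0.00590) and late (0.67, adjusted p = 7.99e-05) at 0.1 µM. Tdgf1 (difference 5.24), Pou5f1 (4.27), Utf1 (3.96) and the retinoid X receptor gene Rxrg (3.79) followed. On the other side stood Meis1 (−4.83), Hoxc5 (−4.57), Rasgrp3, an activator of Ras proteins (−4.17), the orphan receptor Nr2f1 (−4.06) and the zinc finger gene Tshz1 (−4.04). All 10 differences passed the test, with adjusted p at most 0.00876. Meis1 stood at 5.68 to 6.11 on the late 0.1 µM arrays and at 10.39 to 11.27 on the late 1 µM arrays. Meis2 rose at both doses, by 1.41 and 4.36, with a difference of −2.94 ± 0.54 SE (adjusted p = 0.00189), as did Sema3a, by 0.84 and 3.21 (difference −2.37 ± 0.29 SE, adjusted p = 1.09e-04).

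**Figure D5:**
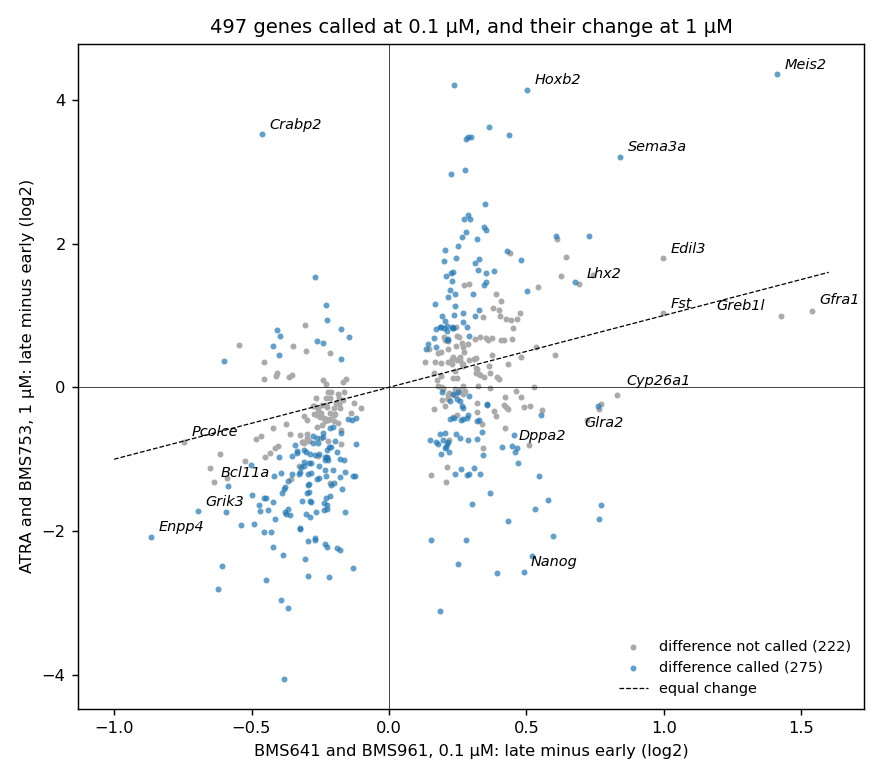
Late minus early change of the 497 genes at 0.1 µM (x axis, BMS641 and BMS961) and at 1 µM (y axis, ATRA and BMS753), both log2, with different axis ranges. Blue points differ between the doses in the test (275) and grey points do not; Nanog, Dppa2 and Crabp2 lie in the quadrants of opposite sign.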

How the data were processed

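RNA of P19 cells was measured on 24 Affymetrix Mouse Gene 1.0 ST arrays. The values are log2 levels as deposited. The submitters' processing notes name Affymetrix Expression Console 1.1, and background correction and normalization are not given in the sources used here. Of 35556 probe sets, 21789 carried 1 gene symbol, 1621 several and 12146 are not named here, and the probe set with the highest mean stood for each of 19938 genes. Array medians ran from 6.502 to 6.677.

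Late against early was fitted on the 8 arrays with limma 3.58.1 in R 4.3.3 (lmFit, eBayes with an intensity trend, agent as block, two-sided, Benjamini-Hochberg over all genes, adjusted p under 0.05). The comparisons with EtOH and 1 µM used the arrays concerned. On simulated data the late against early fit recovered 96% of changes of 0.5 and 100% of changes of 1 log2 unit, with 8 false calls. The simulation drew independent noise for each gene and array, with no difference between agents and no shift shared by genes. Its figures therefore do not cover such shifts. The text names the 15 largest rises and 15 largest falls among called genes without overlap, the 5 largest differences each way between agents and doses, the 5 genes most like Gfra1 and Greb1l, and members of 25 gene lists. The members and lists were chosen with earlier results of these data known, so their shares of called genes are a description. Alternatives covered the variance model, normalization, probe sets, block, times and single arrays. F9 cells are not analysed here.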

Additional observations from a re-analysis of the deposited data

Results flagged for a closer look

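In 8 of 279 groups of 4 arrays over 93 genes, 1 array lay far from the other three by Dixon's criterion, which chance meets in about 1 group in 20. They were EtOH array 2 for Edil3 (6.78), Ephx2 (6.13) and Rasgrp3 (5.33), EtOH array 1 for Cdh3 (9.77), EtOH array 4 for Htr1d (6.56) and Rarg (9.11), and the BMS961 72 h array for Zfp946 (9.17) and Crabp1 (9.52).

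The late change differed between the 0.1 µM agents and the 1 µM agents for 4022 genes. The differences, 0.1 µM minus 1 µM, were 5.34 for Nr0b1, 5.24 for Tdgf1, 4.27 for Pou5f1, 3.96 for Utf1 and 3.79 for Rxrg. In the other direction they were −4.83 for Meis1, −4.57 for Hoxc5, −4.17 for Rasgrp3, −4.06 for Nr2f1 and −4.04 for Tshz1. Agent and dose differ together in these values and cannot be told apart.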

How the results depend on the processing

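No gene among the 497 changed sign under any alternative run. This was favoured in advance, since the genes were chosen for their change on these same 8 arrays. Some alternatives change only the spread and leave the estimate as it was (Gfra1 stood at 1.54 under robust variance moderation and in the fit of all 24 arrays). Of 67 named genes called late against early, 8 stayed called under every alternative but the added 2-fold threshold. The count of 497 became 14 with all 24 arrays in the fit, 816 with a term for each time, 800, 256 and 121 when both arrays of 2, 48 or 72 h were left out, 62 with BMS641 alone, 312 with BMS961 alone and 3 with the 2-fold threshold. Leaving out 1 array gave 253 to 653. It was 564 over the 13292 genes left when the dimmest were dropped, 342 without an intensity trend in the variance and 495 after another quantile normalization. The share called higher, 54.9%, was 42.9% with all 24 arrays and did not move by over 10 points with a scaling. The difference between the agents gave 0 or, without the BMS961 6 h array, 1 gene, with leave-one-out values of 0 to 1. Late against early at 1 µM gave 8099 genes with all 24 arrays and 2375 to 4720 leaving out 1 array. The early count against EtOH was 0 with all 24 arrays and 41 to 71 leaving out 1 array, and the late count 0 with all 24 arrays and 264 to 369 leaving out 1. The cause of these moves was not tested. No paired analysis was possible because the labels give no replicate numbers shared between the groups, so late and early were matched by agent alone. The number of arrays limits the precision, and a phase stands on 2 times of 1 array per agent.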

Other observations

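Of 285 distinct genes in the lists tied to culture conditions, 15 rose and 5 fell late against early at 0.1 µM, a share of 7.02% beside 2.49% of all genes. The members were chosen with earlier results of these data known, so the choice may have raised this share. Of 16 targets of the YAP and TEAD growth regulators, 3 rose and 1 fell: Nt5e rose by 0.77, Ccn2, a secreted matrix protein, by 0.31 ± 0.06 (SE) and Tead1 by 0.19 ± 0.04, while Dlc1 fell (−0.23 ± 0.04) on 1 probe set and stood at 0.02 on its other. Without the BMS961 array at 2, 6, 48 or 72 h the call of Tead1 was lost (adjusted p 0.0675 to 0.113). Of 18 feedback targets of TGF-beta, BMP and Wnt, 2 rose and 0 fell: the inhibitor Id2 (0.35 ± 0.05) and the Wnt effector Lef1 (0.36 ± 0.06). Of 31 genes of ATF4 stress and amino acid supply, 0 rose and 2 fell, Trib3, a pseudokinase (−0.30 ± 0.08), and Cbs, of the cysteine pathway (−0.32 ± 0.05). The call of Trib3 was lost without the BMS641 72 h array or the BMS961 array at 2, 48 or 72 h (adjusted p 0.0975 to 0.188). At 1 µM, where 20.7% of all genes were called, 26 of the 31 were called lower.

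In the remaining culture lists the limma fit called 1 of 34 cell cycle genes higher (Rrm2, 0.15 ± 0.03, lost without the BMS641 6 h, BMS641 72 h or BMS961 72 h array at adjusted p 0.0703 to 0.117). It called 1 of 29 cholesterol and fatty acid genes higher (Fasn, 0.13 ± 0.03, lost without any 1 of 5 arrays). In the circadian list Bhlhe40 rose (0.34 ± 0.08) and Hlf fell (−0.21 ± 0.05), each lost without any 1 of 6 arrays. Of 22 immediate early genes 1 rose, the signalling inhibitor gene Spry2 (0.42 ± 0.09, lost without the BMS961 48 h or 72 h array), and 1 fell, Ier5 (−0.24 ± 0.06, lost without any 1 of 7 arrays). The fit called 0 of 17 p53 and apoptosis, 0 of 24 lysosome, 0 of 17 NRF2, 0 of 18 interferon and 0 of 19 heat shock genes, with 2, 6, 5, 0 and 13 at an unadjusted p under 0.05. The heat shock list had a median of −0.12 late against early, and 11 of its 19 genes were called lower at 1 µM, where 20.7% of all genes were called.

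Kit, the receptor of stem cell factor, and Csn3, a milk casein gene, were, beside Gfra1, among the 5 genes most like Greb1l, and both rose at 0.1 µM (Kit 0.40 ± 0.09, Csn3 0.41 ± 0.10). The likeness was taken over arrays that include the 8 of late against early, so the choice favours a rise. Baz1a, another of the 5, stood at 8.25 to 8.68 early and 8.65 to 8.88 late, with overlap. The call of Kit was lost without any 1 of 4 arrays (adjusted p 0.0598 to 0.118) and that of Csn3 without any 1 of 6 (0.0550 to 0.161).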
